A study of Homo sapiens with 4 samples.

Results

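The MYC, MAX and MXD network is a group of basic helix-loop-helix leucine zipper transcription factors that compete for shared partners and for the same DNA motif. The genes described here are MYC, MYCN, MYCL, MAX, MXD1, MXD3, MXD4, MXI1, MNT and MLX, selected by gene symbol, and they make up 10 of the 32673 genes in the expression table. RNA-seq was carried out on 2 libraries of TF1-BA cells and 2 libraries of TF1-BAR cells. TF1 is a human erythroleukaemia line that depends on GM-CSF, and both derived lines carry BCR-ABL, the tyrosine kinase fusion that drives chronic myeloid leukaemia (CML). TF1-BA cells, made by infecting TF1 with a retrovirus for the p210 form of BCR-ABL, are sensitive to imatinib, an inhibitor of the BCR-ABL kinase. TF1-BAR cells are resistant to imatinib and were derived from TF1-BA cells by prolonged exposure to the drug. Both lines were grown with GM-CSF (2 ng/ml per the labels, while the methods of the study give another concentration) and 10% foetal bovine serum, and 2 μM imatinib was added to the TF1-BAR cultures. Whether the drug was present at harvest is not stated, and 10000000 cells went into each library. The TF1-BAR libraries carry the title VECTOR, with nothing said of what the word refers to, so a possible effect of a vector, of the drug in the culture and of acquired resistance cannot be told apart, and each group is a single line. Nothing in the labels says that the libraries of a line came from separate cultures, so the p-values measure the spread between these libraries, which may be technical.

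MYC, MYCN and MYCL proteins pair with MAX, bind the E-box motif CACGTG and related sequences, and raise transcription of genes for ribosome production, metabolism and cell cycle entry. MXD1, MXD3, MXD4, MXI1 and MNT also pair with MAX at E-boxes, but recruit SIN3 and histone deacetylases and repress transcription, and MXD proteins typically accumulate as blood cells leave the cell cycle and differentiate. MLX is a second shared partner, which pairs with MXD1, MXD4 and MNT and with the glucose-sensing factors MLXIP and MLXIPL. In myeloid leukaemia, sustained MYC activity is a well known companion of BCR-ABL signalling.

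The start-proximal sequences of the members whose transcripts differed most between the lines, MYCN and MXD1, are shown first because results on these genes recur throughout. RefSeq promoter windows (GRCh38.p14, the 250 bases before a transcript start, written 5′ to 3′ on the gene strand) were at hand for 9 of the 10 genes, all but MYC, with 12 windows in all because MAX and MXI1 have several starts. Capitals mark matches, on either strand, to the GC box GGGCGG and to TTTGGCGC, a form of the E2F site. The MYCN window is chr2:15940300-15940549 on the plus strand and the MXD1 window is chr2:69914859-69915108 on the plus strand.
MYCN: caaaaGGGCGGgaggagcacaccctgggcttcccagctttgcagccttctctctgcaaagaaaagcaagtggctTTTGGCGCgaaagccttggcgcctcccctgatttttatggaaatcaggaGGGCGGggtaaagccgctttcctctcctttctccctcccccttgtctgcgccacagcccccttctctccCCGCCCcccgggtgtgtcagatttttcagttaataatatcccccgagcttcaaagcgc
MXD1: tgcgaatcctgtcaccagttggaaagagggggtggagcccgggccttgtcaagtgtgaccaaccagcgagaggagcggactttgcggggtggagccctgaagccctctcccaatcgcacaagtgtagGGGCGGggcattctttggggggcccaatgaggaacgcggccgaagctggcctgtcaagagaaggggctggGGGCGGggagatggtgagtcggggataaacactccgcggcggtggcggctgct
The MYCN window held 3 GC boxes and was the only one of the 12 with TTTGGCGC, which occurred in 0.55% of 35116 windows of the same length over all genes. The MXD1 window held 2 GC boxes and neither TTTGGCGC nor CACGTG. GC boxes were common, being found in 11 of the 12 windows and in 42.6% of all windows.

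The E-box CACGTG, the site that the network proteins themselves bind, was present in 3 of the 12 windows, those of MLX, MNT and MXD4, against 6.34% of all windows. Stretches around the motif are shown with CACGTG in capitals, since they are the genes among the 9 examined that carry the motif of the network itself in these windows. The MLX stretch is chr17:42567020-42567085 on the plus strand, the MNT stretch is chr17:2401218-2401283 on the minus strand and the MXD4 stretch is chr4:2262312-2262359 on the minus strand.
MLX: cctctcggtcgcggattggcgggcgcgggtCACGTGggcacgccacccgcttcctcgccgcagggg
MNT: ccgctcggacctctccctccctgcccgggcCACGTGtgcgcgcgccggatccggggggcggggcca
MXD4: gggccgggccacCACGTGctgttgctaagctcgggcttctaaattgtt
The motif began 50 bases before the start in MLX, 193 in MNT and 238 in MXD4. These matches are a description of the letters and not of binding, and a window without a match says nothing of binding elsewhere.

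Over all 10 members, TF1-BAR cells had more MYCN and MYC and less MXD1 and MXI1 than TF1-BA cells. Expression was given as FPKM, the fragments of a gene scaled to a length for that gene and to the size of the library. The lengths and the counting of overlapping genes are not stated, so comparisons of level between genes are approximate. Differences were tested with limma on log2(FPKM + 0.5) over 15519 genes with a mean of at least 0.5 FPKM, and every member passed that filter. A gene was called when its log2 fold change, TF1-BAR minus TF1-BA, was at least 1 in size with an adjusted p under 0.05. MYCN was called higher and MXD1 was called lower, 2 of 10 members, beside 4.75% of all genes tested, 3.05% higher and 1.69% lower. With the adjusted p alone 4 members passed, 2 higher and 2 lower, beside 26.9% of all genes, 16.3% higher and 10.5% lower. The libraries of the lines did not overlap for 8 members, 3 higher and 5 lower, which is near the 69.3% seen over all genes, 40.9% higher and 28.4% lower. The median log2 fold change of the members was -0.10, and that of all genes tested was 0.07. In bulk RNA, fewer cells expressing a gene and less of its RNA in each cell cannot be told apart.

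**Figure D1:**
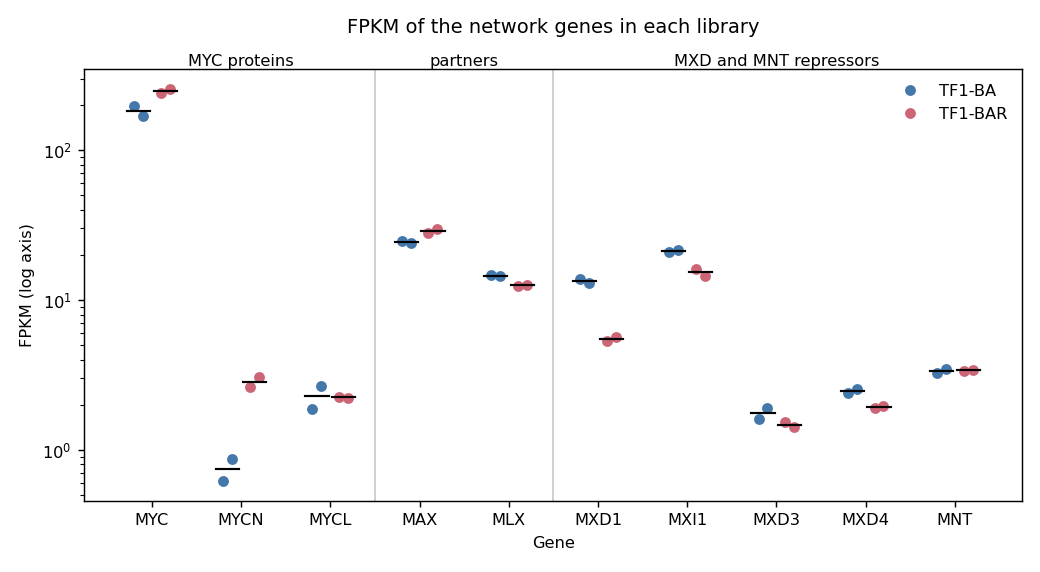
Level of each network gene in each library (FPKM, log axis), grouped as MYC proteins, partners and repressors. Points are single libraries of TF1-BA (blue) and TF1-BAR (red) and short lines are the means of 2 libraries; MYC lies at 167.9 FPKM or more in every library, and MYCN is the lowest gene in both TF1-BA libraries but not in TF1-BAR.

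The activating members differed in level by orders of magnitude. MYC (ENSG00000136997, chr8:127735434-127741434, plus strand) was at 198.2 and 167.9 FPKM in the TF1-BA libraries and at 241.9 and 256.4 FPKM in the TF1-BAR libraries. The groups did not overlap, and MYC stood at the 99.3rd percentile of level among all genes tested. It was 1.36 times as high in TF1-BAR cells, or 0.45 higher on the log2 scale (standard error, SE, 0.0947; limma adjusted p = 0.0292). TF1-BA replicate 2 was the lowest library and carried 7792 MYC fragments, against 10731 in TF1-BA replicate 1. Without TF1-BA replicate 2 the log2 fold change was 0.33 and the adjusted p was 0.142, and the adjusted p also rose above 0.05 when any other library was left out.

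MYCN (ENSG00000134323, chr2:15940564-15947007, plus strand), the family member best known from neural tissue and neuroblastoma, was the least expressed network gene in TF1-BA cells. Its levels there were 0.618 and 0.870 FPKM, and in TF1-BAR cells they were 2.61 and 3.08 FPKM. These values rest on 29 and 35 fragments against 107 and 129, and the Poisson 95% intervals of the counts, which cover counting error only, reached at most 48.7 in TF1-BA and began at 87.7 in TF1-BAR. MYCN was thus 3.83 times as high in the resistant line, with a log2 fold change of 1.43 (SE 0.163, limma adjusted p = 0.00828), at the 98.8th percentile of fold changes. In order of level within the network it was the 10th in both TF1-BA libraries and the 7th in both TF1-BAR libraries. Even so, MYC stayed far above it, by 321 and 193 times in the TF1-BA libraries and by 92.7 and 83.1 times in the TF1-BAR libraries.

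MYCL (ENSG00000116990, chr1:39895426-39902256, minus strand), the third activating family member, was at 1.88 and 2.68 FPKM in TF1-BA and at 2.27 and 2.21 FPKM in TF1-BAR. The TF1-BA libraries bracketed those of TF1-BAR, and the log2 fold change was -0.0072 (SE 0.166, limma adjusted p = 0.979). The sign of that value turned positive with upper-quartile scaling, with rescaling to TPM, with limma voom and without replicate 2 of either line, and no direction is given for MYCL. MYCN was below MYCL in both TF1-BA libraries, with ratios of 0.328 and 0.324, and above it in both TF1-BAR libraries, with ratios of 1.15 and 1.39. As a share of summed MYC, MYCN and MYCL FPKM, MYCN came to 0.308% and 0.507% in TF1-BA and to 1.06% and 1.18% in TF1-BAR, so that MYC remained at 97.9% or more in every library.

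Neither of the shared partners passed the test. MAX (ENSG00000125952, chr14:65006174-65102695, minus strand), the obligate partner of MYC proteins, was the second most abundant member, with 24.7 and 24.0 FPKM in TF1-BA and 28.2 and 29.6 FPKM in TF1-BAR. The groups did not overlap, but the log2 fold change of 0.24 (SE 0.0651) missed the threshold, with an adjusted p of 0.0516 by limma. That p fell to 0.0284 with rescaling to TPM and rose to 0.284 without TF1-BA replicate 2. MLX (ENSG00000108788, chr17:42567068-42573239, plus strand) was at 14.6 and 14.4 FPKM in TF1-BA and at 12.5 and 12.6 FPKM in TF1-BAR. The 4 values were close within each line and apart between lines, with a log2 fold change of -0.21 (SE 0.0658, limma adjusted p = 0.0778) that did not pass the test. The ratio of MYC to MAX FPKM was 8.02 and 6.98 in TF1-BA and 8.58 and 8.65 in TF1-BAR.

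**Figure D2:**
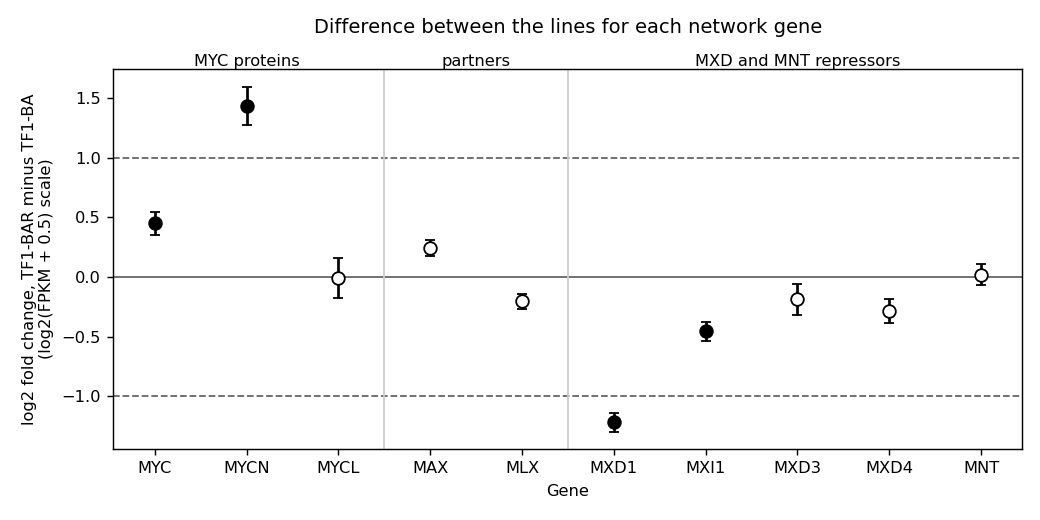
Log2 fold change of each network gene, TF1-BAR minus TF1-BA, on the log2(FPKM + 0.5) scale. Points are limma estimates from 2 libraries a line, bars are plus and minus the standard error, filled points have an adjusted p under 0.05 and dashed lines mark a log2 fold change of 1 in either direction; MYCN at 1.43 and MXD1 at -1.22 lie beyond them.

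Among the repressing members MXD1 changed most. MXD1 (ENSG00000059728, chr2:69897688-69942945, plus strand), which rises as myeloid cells mature and antagonises MYC at shared sites, was at 13.77 and 13.02 FPKM in TF1-BA and at 5.33 and 5.62 FPKM in TF1-BAR. Its fragments numbered 1578 and 1279 in TF1-BA and 534 and 574 in TF1-BAR, so counting error was small beside the difference. MXD1 was at 0.409 times its TF1-BA level in the resistant line, with a log2 fold change of -1.22 (SE 0.0777, limma adjusted p = 0.00374), at the 1.24th percentile of fold changes. Its fold change ranged from -1.29 to -1.15 over all 16 alternative settings, and the adjusted p stayed under 0.05 in each of them. The gene model in the table begins upstream of the RefSeq start and overlaps SNRNP27 (chr2:69893560-69905575), a splicing factor gene on the same strand. SNRNP27 was at 6.12 and 5.51 FPKM in TF1-BA and at 5.72 and 4.70 FPKM in TF1-BAR, with overlapping libraries, and how fragments in the shared stretch were divided was not tested.

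MXI1 (ENSG00000119950, chr10:110207605-110287365, plus strand), also called MXD2, was the most abundant repressor in every library. It was at 20.8 and 21.4 FPKM in TF1-BA and at 16.1 and 14.5 FPKM in TF1-BAR, with no overlap. It fell by 0.46 on the log2 scale (SE 0.0797, limma adjusted p = 0.0195), and the adjusted p rose to 0.113 without TF1-BA replicate 1, 0.129 without TF1-BA replicate 2 and 0.0543 without TF1-BAR replicate 2. MXD1 stood at 0.662 and 0.608 times the MXI1 level in TF1-BA and at 0.331 and 0.388 times in TF1-BAR. MXD1 thus made up 33.0% and 30.8% of the summed repressor FPKM in TF1-BA and 18.9% and 20.9% in TF1-BAR, while MXI1 made up 49.8% and 50.6% and then 57.1% and 53.8%.

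The remaining repressors were lower in level and did not pass the test. MXD3 (ENSG00000213347, chr5:177301461-177312757, minus strand), which unlike other MXD genes is expressed in dividing cells, was at 1.60 and 1.91 FPKM in TF1-BA and at 1.53 and 1.42 FPKM in TF1-BAR. Its log2 fold change was -0.19 (SE 0.132, limma adjusted p = 0.332), and it was -0.31 with quantile normalization, -0.29 without TF1-BA replicate 1 and -0.09 without TF1-BA replicate 2. MXD4 (ENSG00000123933, chr4:2247432-2262294, minus strand) was at 2.38 and 2.55 FPKM in TF1-BA and at 1.91 and 1.96 FPKM in TF1-BAR. The MXD4 libraries did not overlap, and the log2 fold change was -0.28 (SE 0.104, limma adjusted p = 0.103). MNT (ENSG00000070444, chr17:2384060-2401118, minus strand), the broadly expressed repressor of the network, was at 3.24 and 3.44 FPKM in TF1-BA and at 3.34 and 3.43 FPKM in TF1-BAR. Its libraries overlapped, and the log2 fold change was 0.02 (SE 0.0898, limma adjusted p = 0.894), turning negative with quantile normalization and without TF1-BA replicate 1. MLX, MNT and MXD4, the members with CACGTG in the sequences shown above, were among the 6 members that did not pass. So were 11352 of all 15519 genes tested, and a link between the motif and the differences was not tested.

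By level, the order within TF1-BA cells was MYC, MAX, MXI1, MLX, MXD1 and MNT in both libraries, followed by MYCL and MXD4, then MXD3 and MYCN. MYCL was below MXD4 in TF1-BA replicate 1 and above it in TF1-BA replicate 2, so these genes could not be placed against each other, and both were above MXD3 in each library although the lower MYCL value, 1.88 FPKM, lay within the MXD3 range. In TF1-BAR cells the first 6 genes kept that order, and MYCN, MYCL, MXD4 and MXD3 followed with no overlap between neighbours. The libraries of a line differ only by the spread between these samples, so an order fixed by 2 libraries is a description.

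Summed over members of a role, the activating side was higher and the repressing side lower in both TF1-BAR libraries. MYC, MYCN and MYCL together were at 200.7 and 171.4 FPKM in TF1-BA and at 246.8 and 261.7 FPKM in TF1-BAR, 1.37 times as high. MXD1, MXD3, MXD4, MXI1 and MNT together were at 41.8 and 42.3 FPKM in TF1-BA and at 28.2 and 26.9 FPKM in TF1-BAR, 0.655 times as high. The ratio of the sums was 4.80 and 4.05 in TF1-BA and 8.75 and 9.73 in TF1-BAR, on average 2.09 times as high in the resistant line. For each of these 3 measures the groups did not overlap and the exact permutation test over the 4 libraries, two-sided, gave p = 0.33, the smallest value that 2 against 2 libraries allow. MYC carried nearly all of the first sum, and MXD1 and MXI1 most of the second. FPKM sums describe transcripts, and the amounts of the proteins were not measured here.

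**Figure D3:**
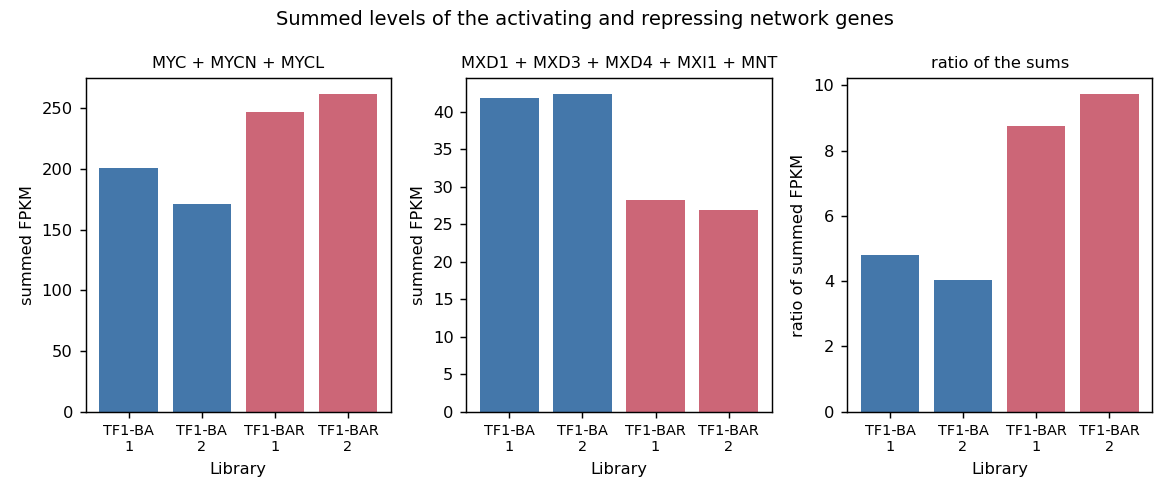
Summed FPKM of the activating members (left) and of the repressing members (middle) and the ratio of the sums (right) in each of the 4 libraries, with bars from 0. The ratio is 4.80 and 4.05 in TF1-BA and 8.75 and 9.73 in TF1-BAR.

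Position on the chromosome was examined for the members with an adjusted p under 0.05. On chromosome 8, which carries MYC, the median log2 fold change over 525 other tested genes was 0.07, and MYC lay at the 81.3rd percentile. The 4 tested genes within 1 Mb of MYC had log2 fold changes from 0.07 to 1.02 with a median of 0.26, all above 0, and none passed by the adjusted p. Chromosome 10, which carries MXI1, was lower in TF1-BAR cells as a whole, with a median log2 fold change of -0.345 over 592 other tested genes, of which 79.2% were below 0. MXI1 lay at the 41st percentile of that chromosome, and its log2 fold change was 0.11 below the chromosome median. Among the 14 tested genes within 1 Mb of MXI1 the median was -0.14, and 9 were below 0. By the adjusted p 6 of the 14 were lower, beside 263 of the 592 on the chromosome and 10.5% of all genes, including SHOC2, a scaffold of RAS signalling, with a log2 fold change of -0.80, and PDCD4, an inhibitor of translation, with -0.66. ADRA2A, an adrenergic receptor gene, was called higher in the same interval with a log2 fold change of 1.31. The part of the chromosome-wide difference in the MXI1 value was not tested.

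MXD1 and MYCN both lie on chromosome 2, at its short arm, where the median log2 fold change over all tested genes was 0.05. Within 1 Mb of MXD1 the 18 other tested genes had a median of 0.02, with 9 below 0. By the adjusted p, 1 of them was lower, GFPT1 of the hexosamine pathway with a log2 fold change of -0.998, and 4 were higher, FAM136A, ADD2, PCBP1-AS1 and CD207, beside 100 lower and 149 higher of 980 on the chromosome. GMCL1 and SNRNP27, the nearest tested genes before MXD1, had log2 fold changes of -0.35 and -0.15 that did not pass the test. Within 1 Mb of MYCN only 5 other genes were tested, with a median of -0.0091. FAM49A was lower with a log2 fold change of -0.74, and DDX1, a helicase gene often amplified together with MYCN in neuroblastoma, had -0.20 (adjusted p = 0.0974) and NBAS -0.0091. AC010880.1, a long noncoding RNA gene, rested on 4 and 7 fragments in TF1-BA and 20 and 12 in TF1-BAR, with no overlap. Its log2 fold change of 1.11 (SE 0.299, limma adjusted p = 0.0511) was just short of the test. It was called with a mean of at least 1 FPKM, upper-quartile scaling, TPM, robust eBayes and limma voom (adjusted p from 0.0401 to 0.0474). With no filter the limma adjusted p was 0.156. When a library was left out, its log2 fold change ranged from 0.80 to 1.42. MYCNOS, the antisense gene that overlaps the start of MYCN (chr2:15939898-15941723, minus strand), had 12 and 4 fragments in TF1-BA and 20 and 18 in TF1-BAR. Its log2 fold change was 0.69 (SE 0.248, limma adjusted p = 0.0995), but with limma voom it was called, at 1.41 (adjusted p = 0.0392), and it passed by the adjusted p among protein-coding genes only (0.0126). The MYCNOS log2 fold change was 0.56 with quantile normalization (adjusted p = 0.171) and 0.45 without TF1-BA replicate 2 (adjusted p = 0.30). Since the library kit is not stated to keep strand, fragments of MYCN and MYCNOS in the overlap cannot be told apart.

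**Figure D4:**
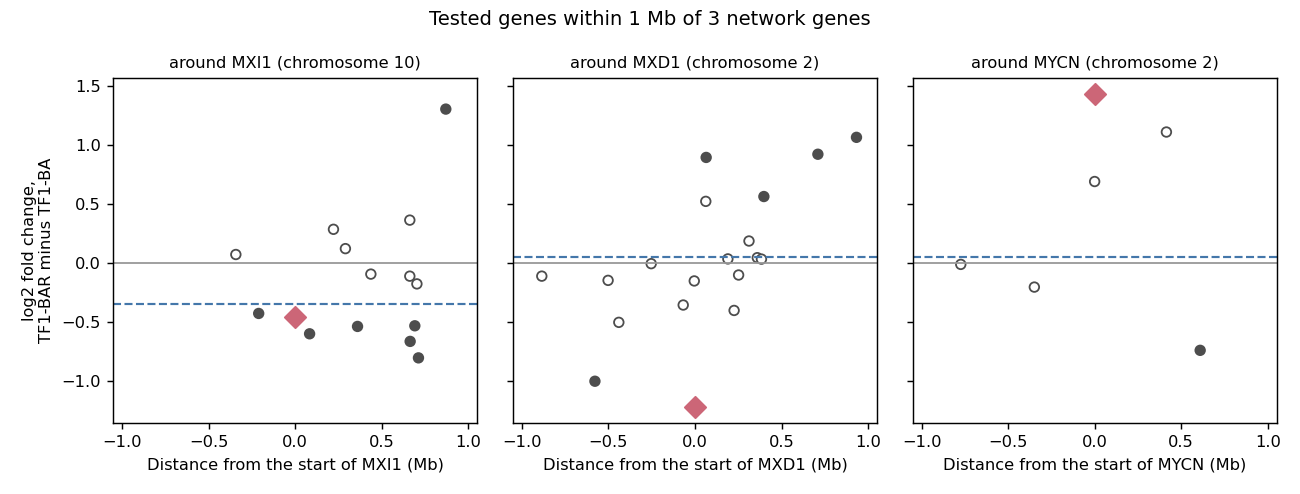
Log2 fold change, TF1-BAR minus TF1-BA, of tested genes by the distance of their start from that of MXI1, MXD1 or MYCN (Mb). Diamonds are the network genes, filled circles have an adjusted p under 0.05, and dashed lines are chromosome medians; MXI1 lies near its chromosome's median and MXD1 and MYCN lie far from theirs.

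Noncoding genes near the MYC genes were listed with their fragments. PVT1, the long noncoding RNA gene next to MYC, was at 2.86 and 2.96 FPKM in TF1-BA and at 2.84 and 3.32 FPKM in TF1-BAR, with overlapping libraries and a log2 fold change of 0.07 (adjusted p = 0.666). CCDC26, a noncoding gene further along the same arm of chromosome 8, was called lower, from 7.41 and 5.71 FPKM to 2.35 and 2.76 FPKM, a log2 fold change of -1.20 (SE 0.151, limma adjusted p = 0.00980). That call was lost with no filter on low values and without TF1-BA replicate 1. MYCNUT had no fragment in any library, where 3 fragments would be the limit that a count of 0 allows, CASC11 had at most 4 and the pseudogene MYCLP1 at most 1. The names GACAT3, CCAT1 and MYCL-AS1 were not analysed here.

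The wider network around these members was also examined in lists chosen by known function. Of 6 further network genes, none was called, beside 4.75% of all genes, 2 were higher and 2 were lower by the adjusted p, beside 16.3% and 10.5%, and the median log2 fold change was 0.05. MLXIP, a partner of MLX in glucose sensing, was at 3.02 and 3.10 FPKM in TF1-BA and at 4.45 and 5.01 FPKM in TF1-BAR, a log2 fold change of 0.55 (adjusted p = 0.0195). MLXIPL, the other glucose-sensing partner, was at 2.36 and 2.38 FPKM in TF1-BA and at 0.896 and 1.03 FPKM in TF1-BAR. MLXIPL fell by 0.97 on the log2 scale (SE 0.124, limma adjusted p = 0.0100), just short of the fold change threshold, and it passed with 0.1 FPKM added, with quantile normalization, with limma voom and without TF1-BAR replicate 2. The MLX partners thus moved in opposite directions while MLX itself did not pass the test. MYCBP2, a large ubiquitin ligase, rose by 0.51 and MYCBP, a small MYC-binding protein, fell by 0.38, whereas MGA at 0.17 and ZBTB17, the MYC partner in repression, at -0.08 did not pass.

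The machinery through which the members act was examined in 3 lists, beside the 16.3% of all genes that were higher and the 10.5% that were lower by the adjusted p. None of the genes in these lists was called, beside 4.75% of all genes. Of 13 genes of the SIN3 corepressor that MXD proteins recruit, RBBP4 was higher with a log2 fold change of 0.31, SIN3B was lower with -0.26, and 11 did not pass, with a list median of -0.02. SIN3A itself had 13.2 and 13.1 FPKM as group means and a log2 fold change of -0.02 (adjusted p = 0.846). Of 14 coactivator genes that MYC recruits, KAT2A with 0.53 and its scaffold TRRAP with 0.37 were higher, and RUVBL2 with -0.44 and ACTL6A with -0.26, both subunits of chromatin complexes, were lower. The list median of the coactivators was -0.00032. Of 14 genes that set the stability of MYC protein, the deubiquitinase USP36 was higher with 0.35, and the kinase PLK1 with -0.49 and the phosphatase subunit PPP2R5A with -0.39 were lower. FBXW7, the ubiquitin ligase subunit that targets MYC for degradation, had a log2 fold change of -0.19 that did not pass (adjusted p = 0.292). The median over these 14 genes was -0.09.

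Targets of MYC were examined in lists of induced and repressed genes. Of 31 genes that MYC is known to induce, none was called, beside 4.75% of all genes, 4 were higher and 3 were lower by the adjusted p, beside 16.3% and 10.5% of all genes, 24 did not pass, and the median log2 fold change of 0.05 lay beside 0.07 for all genes tested. The higher genes were CCND2, a D-type cyclin, with 0.50, PPAN with 0.48, NOP56 with 0.47 and RRP9 with 0.38, the last 3 of ribosome production. The lower genes were NOLC1, a nucleolar protein gene, with -0.83, RRP12 with -0.76 and PHB1, a mitochondrial prohibitin, with -0.30. NOLC1 and RRP12 both lie on chromosome 10, whose median was -0.345, and NOP56 lies on chromosome 20, whose median was 0.39. NOLC1 was at 115.2 and 112.9 FPKM in TF1-BA and at 71.6 and 57.1 FPKM in TF1-BAR. Among the genes of the list that did not pass were ODC1, NCL, CDK4 and TERT, with log2 fold changes of 0.14 (adjusted p = 0.128), -0.28 (adjusted p = 0.110), 0.04 (adjusted p = 0.694) and -0.06 (adjusted p = 0.721) in that order.

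Of 11 genes that MYC is known to repress, 10 were tested, 1 was called lower, beside 1.69% of all genes, 2 were higher and 2 lower by the adjusted p, beside 16.3% and 10.5%, and the median was -0.07. CDKN2B, the p15 inhibitor of CDK4 and CDK6, was at 23.2 and 27.3 FPKM in TF1-BA and at 9.87 and 10.00 FPKM in TF1-BAR, with no overlap. It fell by 1.30 on the log2 scale (SE 0.0975, limma adjusted p = 0.00430). CDKN1B, the p27 inhibitor, was lower with -0.45 (adjusted p = 0.0122), and CDKN1A, the p21 inhibitor, had -0.30 and did not pass (adjusted p = 0.0822). CCND1 with 0.56 and NDRG2 with 0.49 were higher, and GAS1 was below the filter. None of 5 target genes of MLX and its glucose-sensing partners passed the test. Among them TXNIP, a thioredoxin inhibitor, was at 7.11 and 8.06 FPKM in TF1-BA and at 6.23 and 5.73 FPKM in TF1-BAR. Its log2 fold change was -0.32 (limma adjusted p = 0.0701). The log2 fold changes of ARRDC4 and HK2 were 0.22 and 0.14, and those of PFKFB3 and KLF10 were -0.06 and -0.08. NOP56, RRP9, PHB1, CDKN1B, CDKN1C, CCND1, NDRG2, ODC1, NCL, CDK4, TERT and FBXW7 were chosen for mention after their values were seen. So were SIN3A, MGA, ZBTB17, CDKN1A, TXNIP, ARRDC4, HK2, PFKFB3, KLF10, GAS1 and the neighbours of the members.

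**Figure D5:**
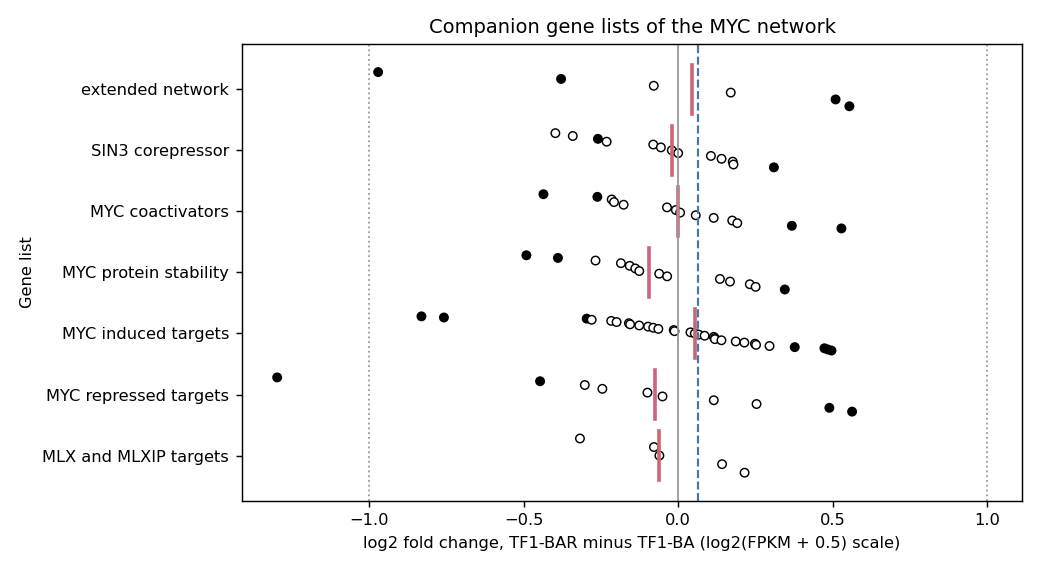
Log2 fold change, TF1-BAR minus TF1-BA, of every tested gene in 7 lists around the network. Filled points have an adjusted p under 0.05, red lines are list medians, the blue dashed line is the median of all genes tested (0.07) and dotted lines mark a log2 fold change of 1 in either direction; CDKN2B at -1.30 is the only point beyond them.

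The libraries held 15465497 to 18042299 fragments, with 98.7% to 98.8% of them in the listed genes. All 10 markers of the TF1 line, CD34, CD33, KIT, CSF2RA, CSF2RB, EPOR, GATA1, GATA2, TAL1 and LYL1, were expressed in every library. Their summed level was 481 to 499 FPKM in TF1-BA and 635.5 to 668.3 FPKM in TF1-BAR, with 6 of 10 higher by the adjusted p, beside 16.3% of all genes, and 2 of them, CD34 and KIT, called higher, beside 3.05%. GATA1 and CSF2RA were lower in both TF1-BAR libraries, with log2 fold changes of -0.14 and -0.19 that did not pass the test. Of 4 T cell markers, CD3D was called lower, beside 1.69% of all genes, at 19.2 and 20.7 FPKM in TF1-BA and 5.74 and 6.36 FPKM in TF1-BAR, while the defining markers CD3E, CD3G and CD2 had at most 3 fragments in a library. Of the B cell markers, CD79A was higher by the adjusted p, beside 16.3% of all genes, with a log2 fold change of 0.61. It was at 1.84 and 2.19 FPKM in TF1-BA and at 3.55 and 3.15 FPKM in TF1-BAR. PAX5 was below the filter with at most 20 fragments in a library and MS4A1 was not analysed here. All 4 fibroblast markers were below the filter, with a sum of at most 0.491 FPKM. Of 5 epithelial markers KRT8 and KRT18 were higher by the adjusted p, beside 16.3% of all genes. The defining markers EPCAM, KRT19 and CDH1 had at most 4 fragments in a library. The part of these markers in the differences of the network genes was not tested.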

How the data were processed

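RNA-seq libraries (NEBNext Ultra kit, 150-bp paired-end reads) were made from 2 TF1-BA and 2 TF1-BAR samples. The deposited values are FPKM per gene and library. The authors describe TopHat v2.0.13 on GRCh38 and Cufflinks, Cuffmerge and Cuffdiff 2.2.0. Whether these tools gave the FPKM, and how fragments of overlapping genes were counted, was not tested. The annotation release and counting by strand are not given in the sources used here. Replicates were not pooled.

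Values were tested as log2(FPKM + 0.5) in a limma model (version 3.58.1, R 4.3.3; eBayes with trend, two-sided) on 15519 genes with a mean of at least 0.5 FPKM, with Benjamini-Hochberg adjustment over all of them. A fold change on this scale understates the change of low genes. The script was tested on simulated data. FPKM corresponded to whole fragments (tolerance 0.002 fragments) for all 30853 genes above 0, 14306 at the GENCODE 44 exon length and 16547 at a fitted length. These recovered fragments gave the depth and an alternative test with limma voom, and exon lengths fitted in this way cannot be checked further. 26 symbols that had become dates were restored. Samples were grouped by the labels, and FPKM sums were compared with an exact permutation test.

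The members and lists were chosen with earlier results of these data known. Named are all members, genes called in a list or otherwise up to 2 in each direction with an adjusted p under 0.05, markers and listed noncoding genes. 1 marker is not reported here. Alternatives covered the added value, filter, scaling, spread, call rule, replicate block, fragments, protein-coding genes and leaving out each library.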

Additional observations from a re-analysis of the deposited data

How the results depend on the processing

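The number of called members was 2 in every alternative, except 4 with the adjusted p and no fold change threshold. Members higher by the adjusted p numbered 2, but 1 with no filter on low values, 1 with eBayes without trend, 1 to 1 when a library was left out, and 3 with a mean of at least 1 FPKM, with TPM, with limma voom and with protein-coding genes only. Members lower by the adjusted p numbered 2, but 1 with no filter, 1 to 2 when a library was left out, and 3 with quantile normalization and with limma voom. MYCN and MXD1 kept their direction and an adjusted p under 0.05 in all 16 alternatives, with a highest adjusted p of 0.0497 for MYCN without TF1-BAR replicate 2. MYC had an adjusted p above 0.05 in 6 of 16 (0.0654 to 0.142) and MXI1 in 4 of 16 (0.0543 to 0.129), while MAX passed in 4 of 16 and MXD4 in 2 of 16. The MYCL log2 fold change changed sign to 0.0023 with upper-quartile scaling, 0.049 with TPM and 0.0092 with limma voom, and ranged from -0.22 to 0.20 when a library was left out. That of MNT changed sign to -0.071 with quantile normalization and ranged from -0.019 (without TF1-BA replicate 1) to 0.056 when a library was left out. The log2 ratio of summed repressors, -0.61, was -0.54 with TPM and -0.66 with quantile normalization. The causes were not tested.

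With a replicate block the members called stayed at 2, and 2 higher and 2 lower passed by the adjusted p. The deviations of same-numbered libraries correlated by 0.0646 over 15519 genes. Whether same-numbered libraries were prepared together is not stated. A single value over all genes cannot settle this, since a shared preparation could act on some genes only. Calls over all genes ranged from 429 to 1144 (737 with the settings of the report): 487 with 1 FPKM added, 508 with no filter, 438 with protein-coding genes only, 1144 with limma voom, and 450, 429 and 520 without TF1-BA replicate 1, TF1-BA replicate 2 and TF1-BAR replicate 2, and 4167 passed with no fold change threshold. That last count, 26.9% of all genes, was 3.4% without TF1-BA replicate 1, 3.31% without TF1-BA replicate 2, 21.9% without TF1-BAR replicate 1, 9.73% without TF1-BAR replicate 2 and 4.69% with no filter, so the shares by the adjusted p used for comparison rest on all 4 libraries. Of the calls, 64.3% were higher, but 52.4% with quantile normalization.

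With 2 libraries a line no permutation p can fall under 0.33. MYCN and MYCNOS rest on at most 129 and 20 fragments in a library, and differences of the size seen for MXD3 or MYCL could not be told from the spread between libraries. The labels do not separate resistance, drug in the culture and vector.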
